A study of Danio rerio with 20 samples.

Results

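Among the 57775 zebrafish transcripts quantified in 20 pools of whole larvae, 24 stood out because they surged in 1 or a few pools. They were chosen by 3 criteria. A transcript needed an estimated count of at least 1 in all 20 libraries, a highest level of at least 20 TPM, and a highest level at least 5 times its own median over the 20 libraries. TPM is the share of transcript molecules that belongs to an entry after correction for its length, scaled to the same total in every library. Of all transcripts, 34927 met the first criterion and 5445 the first and second, so the 24 were 0.441% of those that could have qualified. The limit of 300 members was not reached. The levels that chose the 24 transcripts are given as a description.

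The pools came from wild-type zebrafish (Danio rerio) sampled at 10 days post-fertilization. Over 48 hours they received nanosheets of lithium cobalt oxide (LCO) at 10 mg/L or at 1 mg/L, or a treatment labelled Ions whose makeup and dose the labels do not give, or stayed untreated as controls. Each group held 5 libraries, and each library was made from a pool of 20 larvae that had been given powdered larval food from day 5 on and were frozen whole. Replicate numbers run to 6 with gaps. Total estimated counts ran from 24950500 to 63120000 per library, and the lowest belonged to replicate 2 of LCO 10 mg/L.

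Lithium cobalt oxide is a battery cathode material that can release lithium and cobalt ions into water. The zebrafish larva at this age swims and feeds, and RNA from a whole larva is an average over all its organs, so fewer cells that make a transcript and less of that transcript per cell cannot be told apart. A pool adds a second average, over its larvae. A single larva with a very high level, and a moderate rise shared by many larvae, can therefore give the same value for the pool. TPM is a share of a fixed total, so a transcript that takes much of it lowers the TPM of all others in the same library.

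The 24 identifiers held 18 distinct count profiles. One set of 4 identifiers, one of 3 and one pair had identical estimated counts in every library, so the quantification could not tell their reads apart, and each set is described once under its first identifier. ENSDART00000183623.1 stands for ENSDART00000186841.1, ENSDART00000188176.1 and ENSDART00000193462.1 as well. ENSDART00000180113.1 stands also for ENSDART00000181375.1 and ENSDART00000186090.1, and ENSDART00000180809.1 also for ENSDART00000189523.1. Reads shared with near-identical entries could be split among them, so single levels within these sets are uncertain. The files give no gene names, and 0 of the identifiers matched the name tables used here, so neither the roles of these transcripts nor the markers of the larval tissue could be examined.

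The surging transcripts were short. Their lengths ran from 168 to 1611 bases with a median of 370.5, or 452.5 with identical profiles taken once. The median was 1560 bases over the 5445 transcripts that could have qualified. Of the 24 members, 16 were no longer than 500 bases, and of the 18 distinct profiles 10 were. The same held for 6.76% of those 5445. A short transcript has a small effective length, which is the number of positions a fragment can start from, and its TPM then depends strongly on the fragment lengths of the library.

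A transcript was counted as surging in a pool where its TPM was at least 5 times its own median over the 20 pools. By that count 50 of the 480 combinations of transcript and pool were surges, or 41 with identical profiles taken once. The name single-pool surge held for a minority: 9 of the 24 members surged in exactly 1 pool, 12 in 2 pools, 2 in 5 pools and 1 in 7 pools. Among the 18 distinct profiles these numbers were 6, 9, 2 and 1. Pools were unequal. Replicate 2 of LCO 10 mg/L held 18 surges and replicate 3 of LCO 10 mg/L held 9, while replicates 4, 6 and 1 of that group held 2, 1 and 0. In LCO 1 mg/L, replicates 1, 2 and 5 held 1 surge each and replicates 3 and 6 held 0. The ion pools held 2, 3, 1, 2 and 2 surges in replicates 1, 2, 3, 4 and 6. Among control pools, replicate 4 held 5 surges, replicates 1 and 2 held 1 each, and replicates 3 and 5 held 0. By group this came to 30 surges in LCO 10 mg/L, 3 in LCO 1 mg/L, 10 in ion and 7 in control pools. With identical profiles taken once, LCO 10 mg/L held 21, of which 12 were in replicate 2 and 6 in replicate 3. The other groups were unchanged.

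The surges went together in 2 pools. All 9 members that surged in replicate 3 of LCO 10 mg/L also surged in replicate 2, where they made up 50% of the surging members. As distinct profiles they were 6 of the 12 in replicate 2. Of the 5 members that surged in control replicate 4, 3 also surged in LCO 10 mg/L replicate 2. The highest level of 15 identifiers lay in LCO 10 mg/L replicate 2, of 2 in replicate 3 and of 1 in replicate 6. With identical profiles taken once these were 10, 1 and 1. The remaining 6 identifiers had their highest level in ion pools (4) or control pools (2), and none had it in LCO 1 mg/L.

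**Figure D1:**
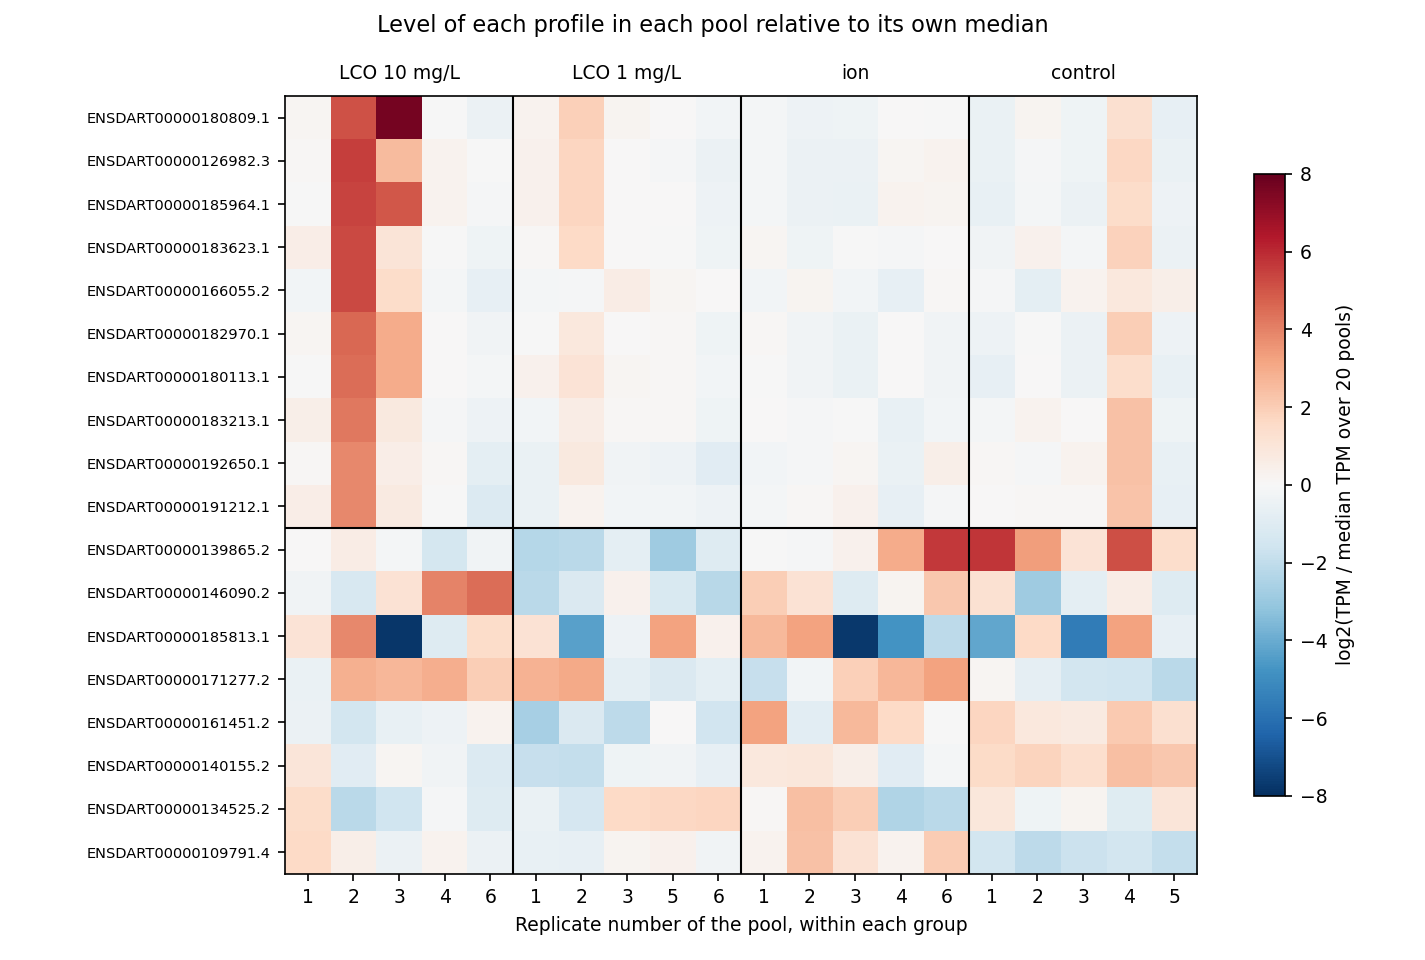
Each row is 1 of the 18 distinct profiles and each column 1 of the 20 pools, by replicate number within LCO 10 mg/L, LCO 1 mg/L, ion and control; colour gives log2 of TPM over the row's median, red above and blue below. The 10 rows above the line are dark red in LCO 10 mg/L replicate 2, with 5 of them at 5 times the median or more in replicate 3 as well, and paler red in control replicate 4; the 8 rows below each have their own pattern.

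Together the 24 transcripts took 35.7% of all TPM in LCO 10 mg/L replicate 2, 11.8% in LCO 10 mg/L replicate 3 and 5.33% in control replicate 4. In the other 17 pools the share lay between 1.02% and 2.71%, with the highest of these in LCO 1 mg/L replicate 2. As a share of estimated counts, which are not corrected for length, the same transcripts took 7.91% in LCO 10 mg/L replicate 2, 1.46% in replicate 3 and 0.611% in control replicate 4. These 3 pools came in the same order on both scales. ENSDART00000182970.1, of 168 bases, gave most of the members' TPM in all 3, at 251493, 82605 and 42039 TPM. ENSDART00000126982.3 gave most of the members' counts in LCO 10 mg/L replicate 2, at 1381010 of the library's 24950500. In LCO 10 mg/L replicate 2 the median of the other transcripts that met the first 2 criteria was 0.60 lower than their own medians on the log2 TPM scale, and 0.04 lower on the log2 scale of CPM, counts scaled to library size without a correction for length. The CPM used here were also scaled by TMM, a normalization that is less affected by a few very abundant transcripts.

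**Figure D2:**
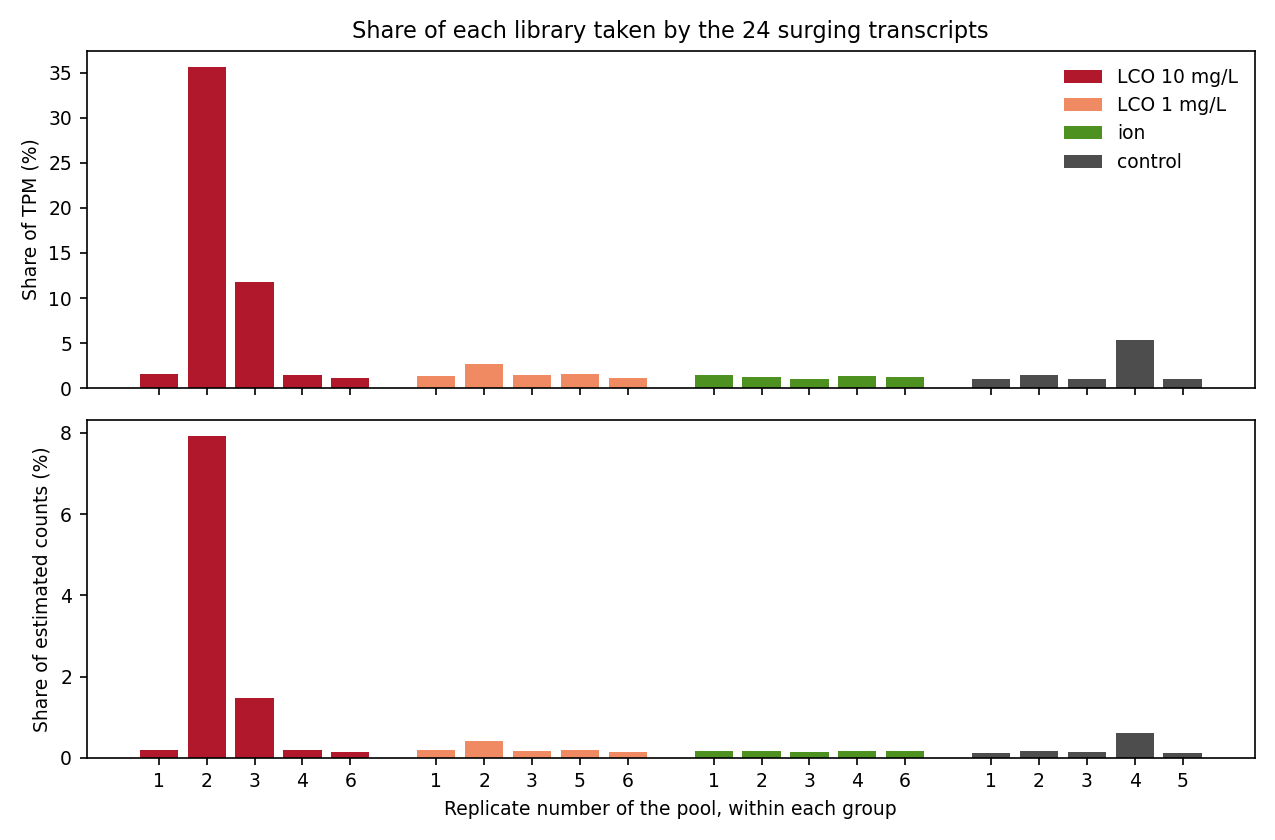
Bars give the share of each library that the 24 transcripts took, as percent of TPM (top) and as percent of estimated counts (bottom), by replicate number within each group. LCO 10 mg/L replicate 2 reached 35.7% of TPM and 7.91% of counts, replicate 3 of that group 11.8% and 1.46%, and control replicate 4 5.33% and 0.611%.

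On clustering by the Pearson correlation of log2(TPM + 1), joined at r of 0.8 or more by average linkage, 10 profiles with 16 identifiers formed a single set and each of the other 8 profiles stood alone. All 10 profiles of the set had LCO 10 mg/L replicates 2 and 3 and control replicate 4 among their 4 highest pools, and 8 of the 10 had LCO 1 mg/L replicate 2 there too. Relative to each profile's own median, the levels were 14.3 to 46.9 times in LCO 10 mg/L replicate 2, 1.46 to 199 times in LCO 10 mg/L replicate 3, 0.946 to 3.74 times in LCO 1 mg/L replicate 2, and 1.82 to 5.10 times in control replicate 4. The median pairwise r within the set was 0.88 over 20 pools. It was 0.77 over the 18 pools without LCO 10 mg/L replicates 2 and 3, and 0.40 over the 16 pools that also left out LCO 1 mg/L replicate 2 and control replicate 4. Average linkage does not require every pair to reach 0.8. Single pairs ran from 0.59 to 0.99 over 20 pools, from 0.19 to 0.99 over 18 and from -0.34 to 0.96 over 16. These correlations share the libraries that formed the set and describe it only.

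**Figure D3:**
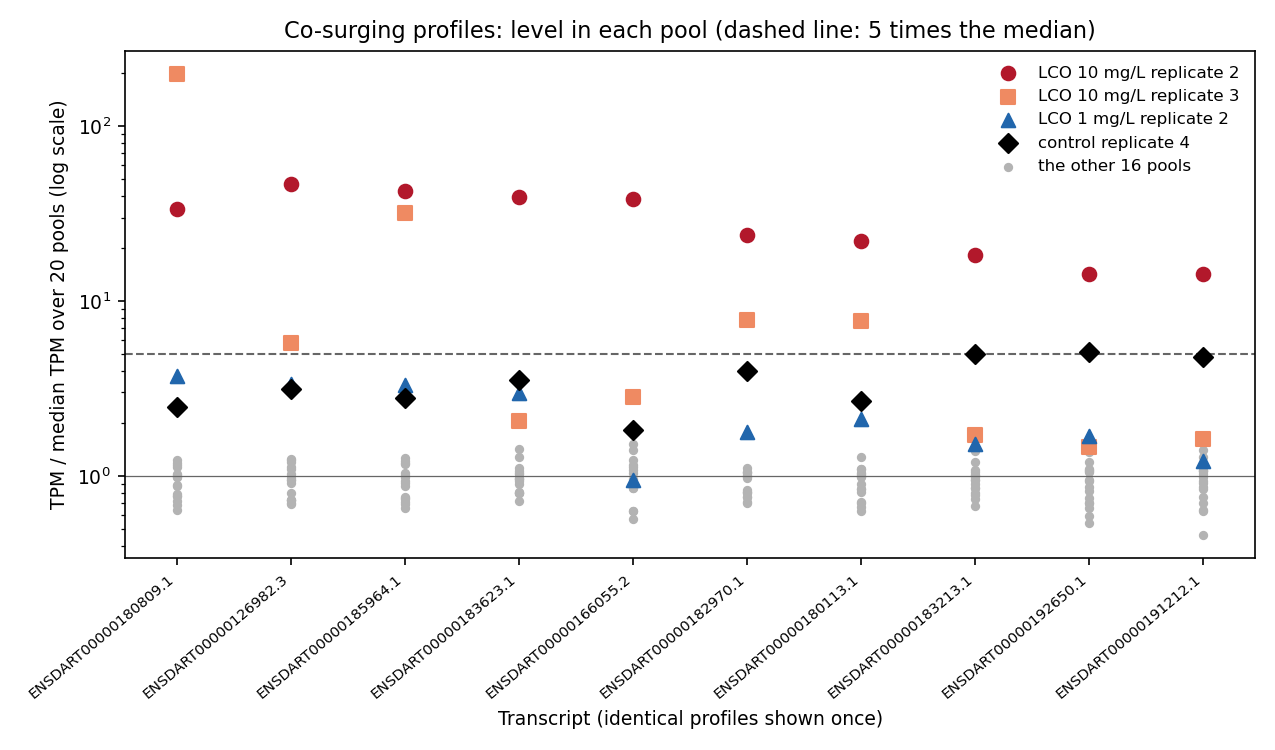
Points give TPM over the median of the 20 pools (log scale) for the 10 profiles that went together; coloured symbols mark 4 pools, grey points the other 16, and the dashed line 5 times the median. Circles, LCO 10 mg/L replicate 2, lie between 14.3 and 46.9; squares, replicate 3 of that group, spread from 1.46 to 199; diamonds, control replicate 4, lie between 1.82 and 5.10.

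The most abundant member was ENSDART00000182970.1, an entry of 168 bases. Its level was 11798, 251493, 82605, 10577 and 8820 TPM in LCO 10 mg/L replicates 1, 2, 3, 4 and 6, and 10268, 18892, 11029, 11159 and 8445 TPM in LCO 1 mg/L replicates 1, 2, 3, 5 and 6. It was 11073, 8593, 7412, 10598 and 8549 TPM in the ion pools and 7996, 10555, 7480, 42039 and 8050 TPM in the 5 control pools. LCO 10 mg/L replicate 2, then replicate 3, then control replicate 4 stood above the rest, and without them the groups overlapped. The effective length of this entry was only 39.6 to 48.7 bases, so that 14189 CPM in LCO 10 mg/L replicate 2 became 251493 TPM. That pool was 38.6 times the entry's median on the CPM scale and 23.8 times on the TPM scale.

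ENSDART00000126982.3, of 1212 bases and the longest profile of the set, had 1048, 45122, 5514, 1191 and 938 TPM in LCO 10 mg/L replicates 1, 2, 3, 4 and 6. It had 1200, 3232, 985, 911 and 702 TPM in LCO 1 mg/L replicates 1, 2, 3, 5 and 6, 873, 704, 704, 1077 and 1156 TPM in the ion pools, and 677, 908, 769, 3023 and 660 TPM in the controls. Its effective length was 1044 to 1068 bases, and on the CPM scale its highest pool, at 60097 CPM, was 67.6 times its median. The entries most like it among all transcripts were both members. Over the 20 pools ENSDART00000186090.1 had r of 0.98 with it and ENSDART00000182970.1 had r of 0.97, and over the 18 pools without LCO 10 mg/L replicates 2 and 3 the values were 0.93 and 0.88. Of the 5407 profiles that met the first 2 criteria outside the list, with identical counts taken once, 0 reached r of 0.8 with it. That count is limited, because a surge lowers the TPM of all others in the library. The median r of the 5407 was -0.57 over 20 pools and -0.004 over 18 pools, where 0 reached 0.8 as well. Some transcripts that did not meet those criteria did reach 0.8 over 20 pools. The highest of these non-members had r of 0.86 over 20 pools and 0.47 over 18 pools, with at most 12.6 TPM.

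ENSDART00000185964.1, of 306 bases, had the most even levels in these 2 pools among the 10 profiles. It had 437, 18837, 14182, 530 and 416 TPM in LCO 10 mg/L replicates 1, 2, 3, 4 and 6. LCO 1 mg/L reached 1477 TPM in replicate 2 and 334 to 565 TPM in its other pools, and the ion pools lay between 308 and 538 TPM. The controls had 291, 403, 327, 1244 and 335 TPM, with replicate 4 again the highest.

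ENSDART00000180809.1, of 432 bases, had the largest surge and was the only profile of the set to peak in LCO 10 mg/L replicate 3. Its levels were 34.3, 1026, 6080, 29.9 and 22.0 TPM in LCO 10 mg/L replicates 1, 2, 3, 4 and 6. LCO 1 mg/L replicate 2 had 114 TPM, the other LCO 1 mg/L pools 26.6 to 37.8 TPM, and the ion pools 23.4 to 31.0 TPM. The controls had 20.7, 35.2, 24.2, 75.4 and 19.5 TPM. The highest pool was 199 times the median.

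ENSDART00000183623.1, of 291 bases, did the opposite within the same pair of pools. It had 5291 TPM in LCO 10 mg/L replicate 2 and 279 TPM in replicate 3, a ratio of 19.0, while LCO 10 mg/L replicates 1, 4 and 6 had 191, 129 and 107 TPM. LCO 1 mg/L replicate 2, at 398 TPM, and control replicate 4, at 473 TPM, both exceeded LCO 10 mg/L replicate 3. The other controls lay between 96.2 and 172 TPM. Across the 10 profiles, the ratio of LCO 10 mg/L replicate 2 to replicate 3 ran from 0.169 to 19.0. By the rule of 5 times the median, all 10 surged in replicate 2 and 5 of them in replicate 3 as well.

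ENSDART00000166055.2, of 733 bases, was the least abundant of the set. It had 72.6 TPM in LCO 10 mg/L replicate 2 and 5.37 TPM in replicate 3. LCO 1 mg/L pools had 1.69 to 2.90 TPM and ion pools 1.20 to 2.20 TPM, against 1.08 to 3.47 TPM in the controls, whose highest was again replicate 4. ENSDART00000180113.1, another entry of 168 bases, had 1110 and 385 TPM in LCO 10 mg/L replicates 2 and 3, against 135 TPM in control replicate 4 and 31.7 to 50.2 TPM in the other controls.

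The last 3 profiles of the set surged in LCO 10 mg/L replicate 2 and had control replicate 4 as their second pool. ENSDART00000183213.1 had 12634 TPM in LCO 10 mg/L replicate 2 and 1176 TPM in replicate 3, against 3455 TPM in control replicate 4. ENSDART00000192650.1 had 347 and 35.3 TPM in these LCO 10 mg/L pools, against 123 TPM in control replicate 4, and ENSDART00000191212.1 had 344 and 39.4 TPM, against 115 TPM. LCO 10 mg/L replicate 3 was in these 3 profiles below the untreated pool, at 1.46 to 1.70 times the median.

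Whether the surges follow treatment was examined in an edgeR quasi-likelihood fit on all transcripts that passed a low-count filter, with p-values adjusted by Benjamini-Hochberg over the 39355 tested. All 24 members passed that filter. The same 20 libraries chose the members, so the counts of members called, and the adjusted p-values of single members, are a description and not independent support for a difference. The counts stand beside the share called of all transcripts. In LCO 10 mg/L against control, 12 of the 24 identifiers were called at an adjusted p under 0.05, where 6.28% of all transcripts were called. As distinct profiles these were 7 higher and 2 lower. The median log2 fold change was 2.90 over the 24 members, 2.45 over the 18 distinct profiles and -0.01 over all transcripts tested. In LCO 1 mg/L against control 4 of 24 were called, 1 higher and 3 lower, where 12.7% of all transcripts were called, and the members' median log2 fold change was -0.22. In ion against control 1 member was called, where 0.0356% of all were, and the median was -0.54. A joint test of any difference among the 4 groups called 18 members, where 9.68% of all transcripts were called. The 3 comparisons share the 5 control pools.

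Of the 10 profiles that went together, 5 were called higher in LCO 10 mg/L. ENSDART00000180809.1 had a log2 fold change of 5.49 ± 1.27 (SE, adjusted p = 0.0157 by edgeR), and ENSDART00000185964.1 of 3.99 ± 1.00 (SE, adjusted p = 0.0245 by edgeR). For ENSDART00000126982.3 it was 3.58 ± 1.01 (SE, adjusted p = 0.0402 by edgeR). ENSDART00000166055.2 and ENSDART00000180113.1 were called at 3.26 and 2.90 on the log2 scale. The other 5 profiles had log2 fold changes of 1.37 to 3.01 and did not pass. No profile of the set was called in LCO 1 mg/L or in ion against control, with log2 fold changes of -1.15 to 0.34 in LCO 1 mg/L and -1.15 to -0.50 in ion. These comparisons include control replicate 4, whose median level over the 10 profiles was 3.33 times each profile's own median. By the same measure the other controls lay at 0.70 to 1.00 times. The ion pools lay at 0.81 to 1.01 times and the LCO 1 mg/L pools at 0.80 to 1.95 times.

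The positive fold changes of the 10 profiles came from 2 of the 5 pools. The list and the set were chosen partly by the levels in these pools. A fall of the fold changes without them was therefore built in and describes the set only. With LCO 10 mg/L replicates 2 and 3 both left out, 0 of the 10 profiles were called, and the log2 fold change against control was negative in all 10, between -1.10 and -0.29. For ENSDART00000180809.1 it was -0.40 (adjusted p = 0.782 by edgeR), and for ENSDART00000126982.3 -0.29 (adjusted p = 0.869 by edgeR). Control replicate 4 was kept in the fit without both pools. On the CPM scale the median over the 10 profiles, relative to each profile's own median, was 3.62 in control replicate 4. It was 0.79, 1.06, 0.92 and 0.72 in control replicates 1, 2, 3 and 5. In LCO 10 mg/L replicates 1, 4 and 6 it was 1.11, 1.04 and 0.72. The negative sign therefore does not show that these exposed pools lay below the other controls. Leaving out either LCO 10 mg/L replicate 2 or replicate 3 alone kept the 5 called profiles positive. Without LCO 10 mg/L replicate 3 none of the 5 passed, at adjusted p of 0.0512 to 0.0722 by edgeR. The log2 fold changes were then 3.40 in ENSDART00000180809.1, 3.68 in ENSDART00000185964.1, 3.78 in ENSDART00000126982.3, 3.51 in ENSDART00000166055.2 and 2.88 in ENSDART00000180113.1, so that the size fell by more than 1 standard error in ENSDART00000180809.1 and by less or not at all in the other 4. Without LCO 10 mg/L replicate 2 the log2 fold changes were 5.52 in ENSDART00000180809.1, which still passed, and 2.95 in ENSDART00000185964.1, 0.87 in ENSDART00000126982.3, 0.10 in ENSDART00000166055.2 and 1.34 in ENSDART00000180113.1, which did not. Over the 24 identifiers the number called in LCO 10 mg/L against control was then 5 without replicate 2, 2 without replicate 3 and 2 without both. Over all transcripts, 1296, 1557 and 567 were called in these fits, against 2470 with all libraries. The number of identifiers was 6, 5, 5 and 5 without control replicates 1, 2, 3 and 5, beside 2256, 2113, 1215 and 1655 transcripts. It was 10 without control replicate 4, beside 1212 transcripts. It was 17, 10 and 10 without LCO 10 mg/L replicates 1, 4 and 6, beside 2881, 1895 and 1356 transcripts. By limma-voom, a test on log values chosen after the data were seen, the number was 1, beside 2272 transcripts.

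**Figure D4:**
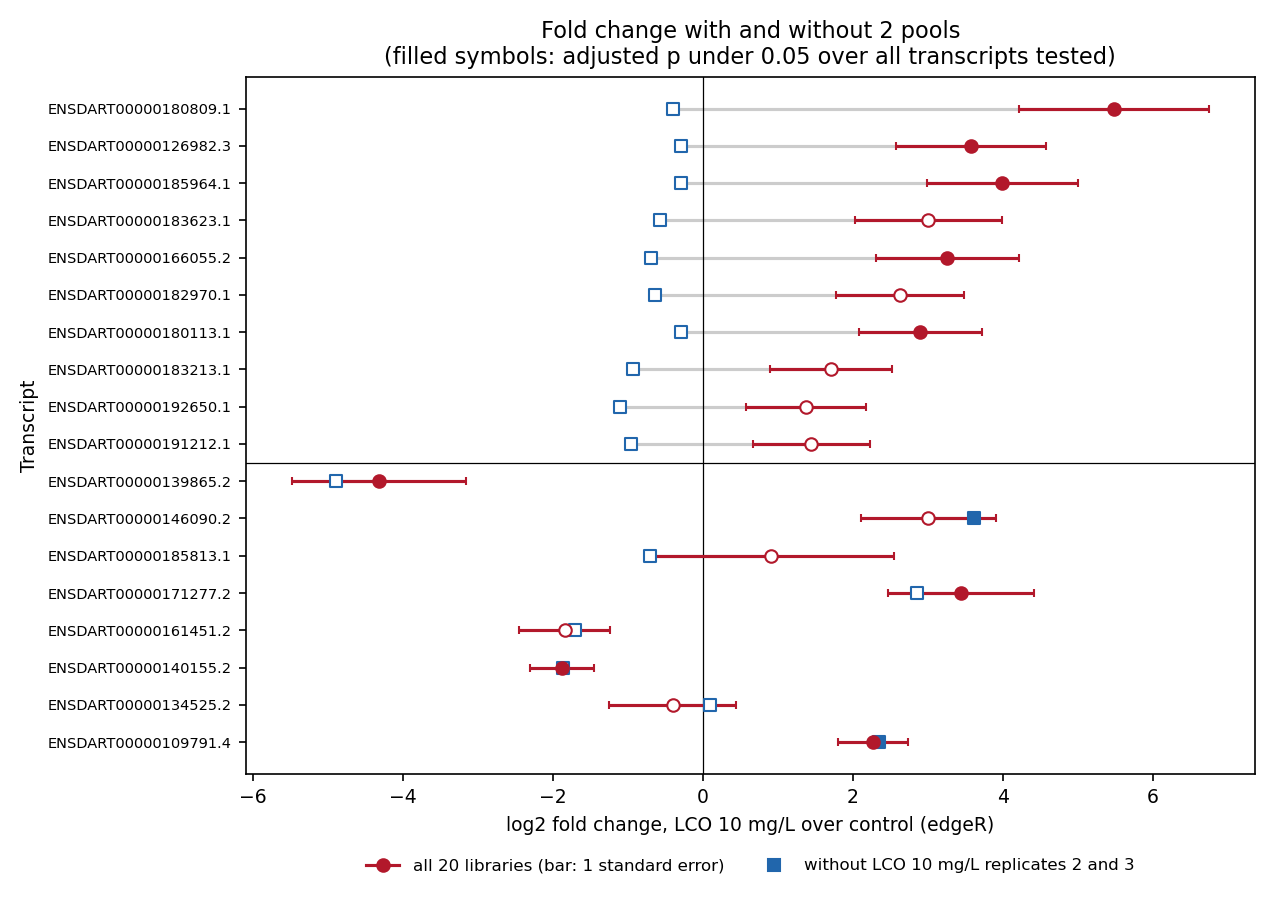
Red circles give each profile's log2 fold change of LCO 10 mg/L over control with 1 standard error in all 20 libraries, blue squares the same without LCO 10 mg/L replicates 2 and 3; filled symbols had an adjusted p under 0.05. The 10 profiles above the line move from 1.37 to 5.49 with all libraries to between -1.10 and -0.29 without those 2 pools. Every profile below the line moves by less than any profile above it. Control replicate 4 is kept in both fits.

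Some measures of the libraries are given here beside the surges. LCO 10 mg/L replicate 2 had 24950500 estimated counts, the lowest total, and replicate 3 had 27014300. LCO 10 mg/L replicate 6, with 25940600, held 1 surge and none in the set. Control replicate 4 had 38540900. The gap between length and effective length, which tracks the fragments of a library, was 166 and 162 bases in LCO 10 mg/L replicates 2 and 3. It was 150 bases in control replicate 4 and ran from 144 to 168 over all pools. The TMM scaling factor was lowest in LCO 10 mg/L replicate 2, at 0.922. It was 0.964 in replicates 3 and 4 of that group and 0.992 in control replicate 4. Of the transcripts that met the first 2 criteria and were not members, 0 in LCO 10 mg/L replicate 2 and 2 in replicate 3 reached 3 times their median TPM, against 0 to 8 in the other pools. On the CPM scale these counts were 1 and 1, against 0 to 10, the highest being control replicate 4. The part of these measures in the surges was not tested.

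The 8 profiles outside the set showed 8 patterns. In 2 of them all exposed pools lay on 1 side of the controls. The share of all transcripts that did so was not counted, so whether 2 is many cannot be told. The shares that follow are for single pairs of groups, which is a different measure. Pair by pair, 8.27% of all transcripts tested had no CPM overlap between LCO 10 mg/L and control. The share was 10.1% for LCO 1 mg/L and 3.09% for ion. ENSDART00000109791.4, of 279 bases, had 58.1, 26.0, 13.9, 23.1 and 13.9 TPM in LCO 10 mg/L and 12.9, 12.2, 22.6, 24.5 and 15.7 TPM in LCO 1 mg/L. It had 23.5, 97.9, 41.8, 23.2 and 78.7 TPM in the ion pools and 7.03, 4.41, 5.94, 6.86 and 5.16 TPM in the controls. Every one of the 15 exposed pools lay above every control, and the surge itself was in ion replicate 2. It was called higher in all 3 comparisons, with log2 fold changes of 2.27 ± 0.47 in LCO 10 mg/L (SE, adjusted p = 0.00847 by edgeR), 1.49 ± 0.46 in LCO 1 mg/L (SE, adjusted p = 0.0386 by edgeR) and 3.06 ± 0.47 in ion (SE, adjusted p = 0.0184 by edgeR). The call in LCO 10 mg/L held without each pool in turn, but in LCO 1 mg/L and in ion it was lost in 7 of the 10 leave-one-out fits each, with adjusted p up to 0.0901 and 0.0842. Over those fits the size of the difference stayed at 1.33 to 1.63 in LCO 1 mg/L and at 2.71 to 3.26 in ion, on the log2 scale. By limma-voom the adjusted p was 0.0636, 0.162 and 0.0882 in the 3 comparisons. The only surge, in an ion pool, made this transcript a member, so the ion difference is partly built into the choice.

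ENSDART00000140155.2, of 676 bases, was the reverse. It had 24.5, 6.80, 14.3, 10.6 and 6.05 TPM in LCO 10 mg/L, 3.53, 3.39, 9.94, 10.5 and 8.24 TPM in LCO 1 mg/L and 23.3, 24.1, 17.8, 6.69 and 11.2 TPM in ion pools. The controls had 36.7, 43.8, 31.7, 68.8 and 55.7 TPM, all above every exposed pool, and its surge, 5.40 times the median, was in control replicate 4. The log2 fold change was -1.88 ± 0.43 in LCO 10 mg/L (SE, adjusted p = 0.0144 by edgeR) and -2.77 ± 0.44 in LCO 1 mg/L (SE, adjusted p = 0.000284 by edgeR). Both calls held without each pool in turn and by limma-voom. In LCO 10 mg/L the adjusted p was 0.0979 by edgeR with replicates 2 and 3 of that group both left out. It was 0.0526 by edgeR with the replicate number as a block. The LCO 1 mg/L call held there (adjusted p = 0.00400 by edgeR). The only surge, in a control pool, made this transcript a member. Lower levels in the exposed pools are therefore partly built into the choice, and these values describe it only. In ion the log2 fold change was -1.62 ± 0.42 (SE) and did not pass (adjusted p = 0.208 by edgeR).

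ENSDART00000161451.2, of 1611 bases and the longest member, was low in both LCO groups. It had 1.65, 0.804, 1.52, 1.68 and 2.71 TPM in LCO 10 mg/L and 0.363, 1.03, 0.540, 2.30 and 0.775 TPM in LCO 1 mg/L, against 7.44, 4.02, 3.77, 9.84 and 5.53 TPM in the controls. The ion pools held 20.8, 1.29, 13.4, 6.96 and 2.23 TPM, with surges in replicates 1 and 3 and a spread that covered the controls. The log2 fold change was -2.61 ± 0.63 in LCO 1 mg/L (SE, adjusted p = 0.00861 by edgeR), a call that held without each pool in turn and by limma-voom. In LCO 10 mg/L it was -1.85 ± 0.61 (SE, adjusted p = 0.0778 by edgeR), so it did not pass although the groups did not overlap.

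Counted by overlap, 3 members had no CPM value in common between the ranges of LCO 10 mg/L and control, 4 between LCO 1 mg/L and control, and 2 between ion and control. The same held for 8.27%, 10.1% and 3.09% of all transcripts tested. In LCO 10 mg/L these were ENSDART00000109791.4 above the controls and ENSDART00000161451.2 and ENSDART00000140155.2 below. In LCO 1 mg/L ENSDART00000139865.2 was added below. In ion they were ENSDART00000109791.4 above and ENSDART00000140155.2 below. None belonged to the set that surged together.

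ENSDART00000139865.2, of 701 bases, surged in 2 ion pools and 3 controls. It had 2.31, 3.48, 2.06, 0.844 and 1.90 TPM in LCO 10 mg/L, 0.478, 0.502, 1.34, 0.321 and 1.09 TPM in LCO 1 mg/L, 2.25, 2.18, 2.91, 18.2 and 117 TPM in ion pools, and 118, 23.3, 4.89, 80.2 and 5.97 TPM in the controls. Both LCO groups lay below every control on the TPM scale, and only LCO 1 mg/L did so on the CPM scale. The log2 fold change was -6.00 ± 1.29 in LCO 1 mg/L (SE, adjusted p = 0.00403 by edgeR), held without each pool in turn and was not called by limma-voom (adjusted p = 0.295). In LCO 10 mg/L it was -4.33 ± 1.16 (SE, adjusted p = 0.0323 by edgeR), and the call was lost in 7 of the 10 leave-one-out fits, with adjusted p up to 0.0785 and log2 fold changes of -4.75 to -3.68.

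ENSDART00000171277.2, of 1012 bases, surged in 7 pools, none of them a control. It had 15.3, 157, 139, 161 and 84.7 TPM in LCO 10 mg/L, 148, 180, 12.8, 9.78 and 12.5 TPM in LCO 1 mg/L and 6.12, 18.9, 83.7, 141 and 204 TPM in ion pools. The controls had 24.9, 13.5, 7.95, 7.11 and 4.98 TPM. In each exposed group some pools were within the range of the controls and others were far above it. It was called higher in LCO 10 mg/L at a log2 fold change of 3.44 ± 0.98 (SE, adjusted p = 0.0423 by edgeR), a call lost in 8 of the 10 leave-one-out fits, with adjusted p up to 0.105, while the log2 fold change stayed between 3.13 and 3.88. In LCO 1 mg/L and in ion the log2 fold changes of 2.50 and 2.86 did not pass.

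ENSDART00000146090.2, of 1215 bases, surged in LCO 10 mg/L replicates 4 and 6, which were not the pools where the set surged. It had 0.848, 0.424, 2.27, 16.5 and 23.5 TPM in LCO 10 mg/L, 0.227 to 1.32 TPM in LCO 1 mg/L, 0.518 to 4.65 TPM in ion pools and 2.41, 0.147, 0.614, 1.54 and 0.508 TPM in controls, so 3 of the 5 LCO 10 mg/L pools were within the range of the controls. The log2 fold change was 3.01 ± 0.90 (SE, adjusted p = 0.0537 by edgeR), and with LCO 10 mg/L replicates 2 and 3 left out 3.62 (adjusted p = 0.0473 by edgeR). Those 2 pools lay far below its surging pools, so leaving them out raises the group's mean, and the second value is no added support. By limma-voom the log2 fold change was 2.33 with all libraries (adjusted p = 0.229).

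The remaining 2 profiles varied within every group. ENSDART00000185813.1, of 525 bases, ranged from 0.305 TPM in LCO 10 mg/L replicate 3 to 962 TPM in LCO 10 mg/L replicate 2. It also ranged from 3.26 to 623 TPM in LCO 1 mg/L, from 0.319 to 617 TPM in ion and from 1.40 to 615 TPM in control pools. ENSDART00000134525.2, of 473 bases, ran from 38.9 to 477 TPM in LCO 10 mg/L, from 68.0 to 555 TPM in LCO 1 mg/L, from 32.4 to 887 TPM in ion and from 87.0 to 334 TPM in control pools. Neither passed any of the 3 comparisons with control or the joint test, and all 4 groups overlapped.

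**Figure D5:**
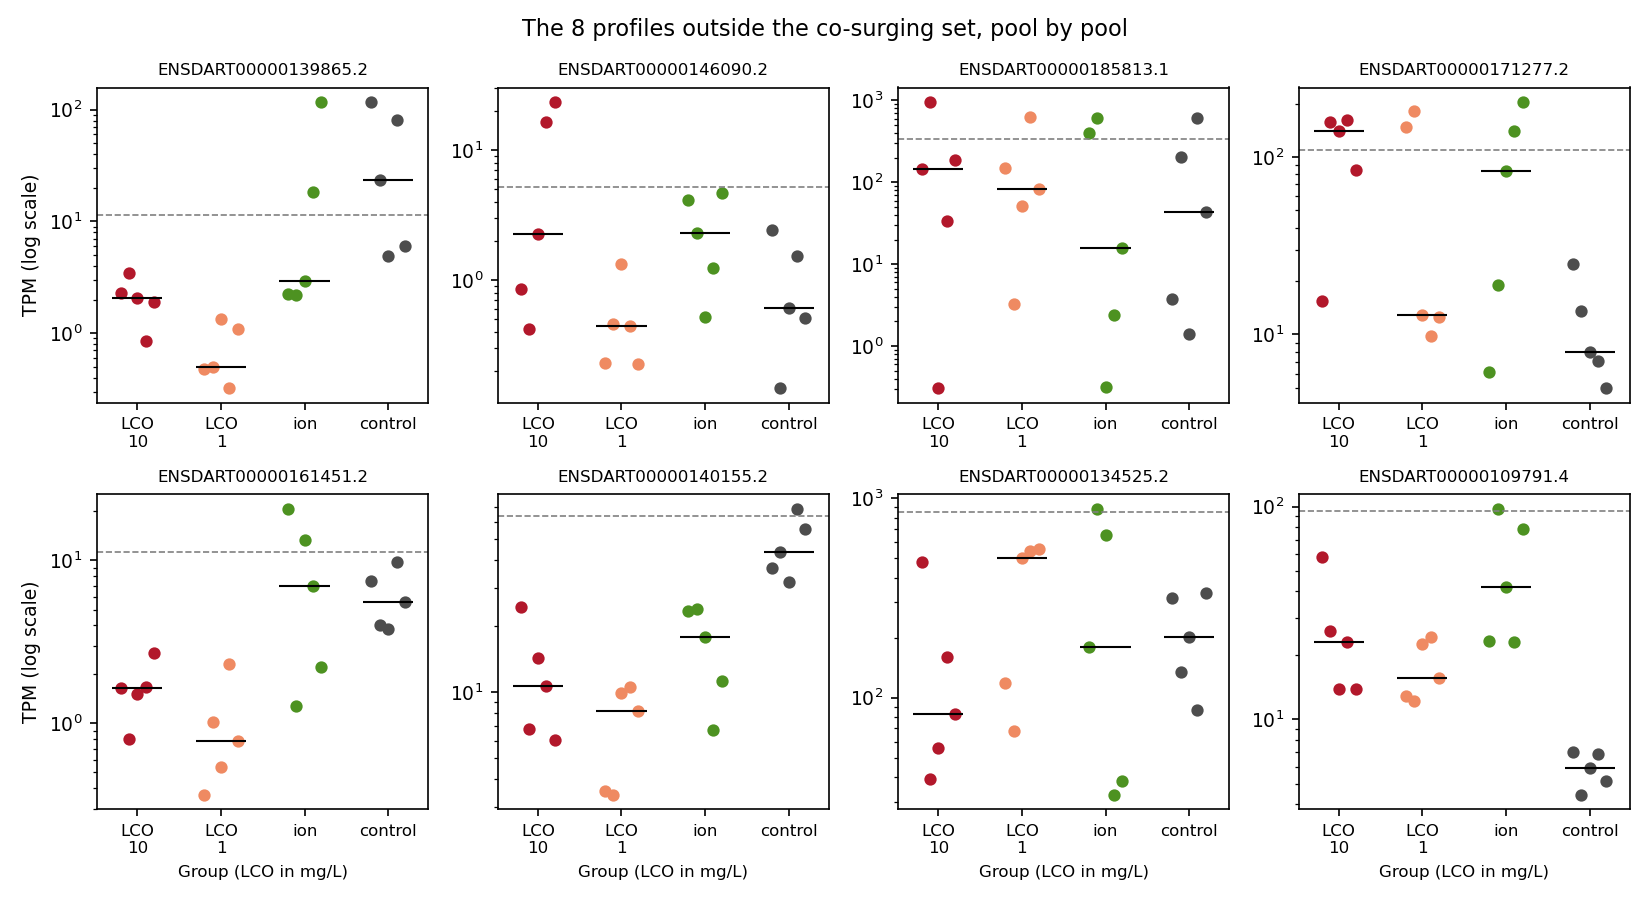
Each panel shows the TPM (log scale) of 1 of the 8 profiles outside the set, with 1 point per pool in replicate order, a bar at the group's median and a dashed line at 5 times the median of all pools. In ENSDART00000109791.4 the controls, at 4.41 to 7.03 TPM, lie below all 15 exposed pools, and in ENSDART00000140155.2 the controls, at 31.7 to 68.8 TPM, lie above them.

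The threshold left the list with no wide gap at its end. Just inside were ENSDART00000140155.2, ENSDART00000134525.2 and ENSDART00000109791.4, at 5.40, 5.22 and 5.10 times the median. Just outside were ENSDART00000146367.2 at 4.78, ENSDART00000173943.2 at 4.75 and ENSDART00000110490.4 at 4.63 times, with their highest levels in LCO 1 mg/L replicate 5, control replicate 4 and ion replicate 2. The profiles of the set lay well inside, at 14.3 times or more. The median of this ratio over the 5445 transcripts that could have qualified was 1.28. Without the requirement of a count in all 20 libraries, 63 transcripts with a median above 0 would have met the other 2 criteria. Another 4 reached 20 TPM with a median of 0 and were left out of that number.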

How the data were processed

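Each library's deposited table lists length, effective length, estimated count and TPM per Ensembl transcript. Per the submitters' processing notes, FastQC 0.11.5, cutadapt 1.18 and kallisto 0.45.0 were used with genome build GRCz11, and no settings are given in the sources used here. The deposited estimated counts are expected counts: 78.1% to 81.0% of values above 0 in a library were not whole. They were rounded for testing. TPM as deposited by the authors chose the members, described them and was screened for pools apart from their group; the comparisons between groups used counts.

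Members and rules were chosen with earlier results of these data known. Named transcripts were those with the 10 largest ratios, the 3 leading in a pool with at least 10 of the peaks, the 3 on each side of the threshold, up to 3 called per direction and comparison, the 3 most abundant, and the 2 most correlated with the leading one. ENSDART00000191212.1, ENSDART00000192650.1, ENSDART00000185813.1 and ENSDART00000171277.2 fall outside that rule and were named after their values were seen, to account for every member.

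Counts were tested in R 4.3.3 with edgeR 4.0.16 (filterByExpr with minimum count 10, TMM, glmQLFit over the 20 libraries with a term for group alone, glmQLFTest, Benjamini-Hochberg). A transcript was called at an adjusted p under 0.05, and the standard error was the log2 fold change over the square root of F. Alternatives used DESeq2 1.42.0, limma 3.58.1, other scalings and filters, and left-out libraries. The labels do not say whether pools shared parents or tanks, so the p-values reflect only how far these pools varied. Over all transcripts tested, same-numbered pools did not deviate together (r of -0.20 to 0.17, median -0.003, over 25 pairs), so replicate numbers were not taken to pair pools. That check covers all transcripts at once and cannot exclude pairing for the members alone.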

Additional observations from a re-analysis of the deposited data

Results flagged for a closer look

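In each group of 5 pools, the TPM of the 18 distinct profiles and the members' share of the library were compared with Dixon's criterion, under which the gap between the extreme pool and its neighbour exceeds 0.71 of the group's range. The criterion marked 33 of 80 groups. Its usual chance rate of about 5% does not apply here, because the transcripts were chosen for extreme values in these same pools and the profiles move together, so the values below list which pools stood apart and support nothing further.

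Within LCO 10 mg/L, replicate 2 stood apart at 45122 TPM in ENSDART00000126982.3, 5291 TPM in ENSDART00000183623.1, 72.6 TPM in ENSDART00000166055.2 and 12634 TPM in ENSDART00000183213.1. It also did so at 347 TPM in ENSDART00000192650.1, 344 TPM in ENSDART00000191212.1, 962 TPM in ENSDART00000185813.1 and 7.91% of counts. Replicate 3 stood apart at 6080 TPM in ENSDART00000180809.1, where replicate 2 was second. Replicate 1, which held no surge, stood apart at 477 TPM in ENSDART00000134525.2 and 58.1 TPM in ENSDART00000109791.4.

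Within LCO 1 mg/L, replicate 2 stood apart although none of the 10 profiles that went together reached 5 times its median there. Its values were 114 TPM in ENSDART00000180809.1, 3232 TPM in ENSDART00000126982.3, 1477 TPM in ENSDART00000185964.1, 398 TPM in ENSDART00000183623.1, 18892 TPM in ENSDART00000182970.1 and 40.7 TPM in ENSDART00000192650.1. The members' share in this pool was 2.71% of TPM and 0.419% of counts. Replicate 3 stood apart at 1.32 TPM in ENSDART00000146090.2 and replicate 5 at 623 TPM in ENSDART00000185813.1. In the ion group the single case was replicate 6 at 117 TPM in ENSDART00000139865.2.

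Among controls every case was replicate 4. Its values were 75.4 TPM in ENSDART00000180809.1, 3023 TPM in ENSDART00000126982.3, 1244 TPM in ENSDART00000185964.1, 473 TPM in ENSDART00000183623.1 and 42039 TPM in ENSDART00000182970.1. The same pool had 135 TPM in ENSDART00000180113.1, 3455 TPM in ENSDART00000183213.1, 123 TPM in ENSDART00000192650.1, 115 TPM in ENSDART00000191212.1, and a members' share of 5.33% of TPM and 0.611% of counts. These are 9 of the 10 profiles that went together, which were grouped partly by their level in this pool.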

How the results depend on the processing

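For LCO 10 mg/L against control, 12 members and 2470 transcripts were called. They numbered 14 and 4474 by DESeq2, 12 and 2560 with its size factors in edgeR, and 11 and 2472 with a robust spread estimate. They were 6 and 1907 with no low-count filter, 5 and 3004 with only the 2 groups fitted, and 1 and 2272 by limma-voom. With LCO 10 mg/L replicates 2 and 3 left out they were 2 and 567. Over the leave-one-out fits they ran from 2 to 17 and from 1212 to 2881. For LCO 1 mg/L, 4 members and 5016 transcripts were called. By limma-voom 2 of the 4 members remained, beside 5240 transcripts, and DESeq2 called 5 and 7100. Leave-one-out gave 3 to 4 members and 3554 to 5367 transcripts. For ion, 14 transcripts and 1 member were called; these were 428 and 2 by DESeq2, 29 and 0 by limma-voom, 0 and 0 with only the 2 groups fitted (edgeR), and 0 to 15 and 0 to 1 over the leave-one-out fits; 3945 transcripts and 3 members had an unadjusted p under 0.05. The joint test called 18 members beside 3808 transcripts in the main fit. By limma-voom these were 2 and 3879, and by DESeq2 15 and 6933. Dropping both surging pools of LCO 10 mg/L named above gave 5 members beside 2887 transcripts. The leave-one-out fits gave 8 to 20 members and 2841 to 4293 transcripts. In a fit with the replicate number as a replicate block, 2 members and 1793 transcripts were called in LCO 10 mg/L. The joint test then called 4 and 2806. In ion, 0 members and 6 transcripts were called. Replicate numbers were not taken to pair pools in the main fit. Limma-voom, the robust spread estimate and the fits of the list without named pools were chosen after seeing the data.

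Without LCO 10 mg/L replicates 2 and 3, and with control replicate 4 kept, the log2 fold change reversed to -0.40 in ENSDART00000180809.1, -0.29 in ENSDART00000126982.3, -0.30 in ENSDART00000185964.1, -0.69 in ENSDART00000166055.2 and -0.29 in ENSDART00000180113.1. With CPM in place of TPM the list also held 24, of which 22 were among the 24 chosen by TPM. The list of 24 became 62 at 3 times the median and 15 when the second-highest pool had to reach 5 times. It was 11 without both pools, of which 8 were among the 24, and 9 when control replicate 4 was left out too. Over the leave-one-out runs it held 18 to 26. LCO 10 mg/L replicate 3 held 3 surges rather than 9 at 10 times the median, and control replicate 4 held 13 at 3 times and 1 at 10 times, against 5. LCO 10 mg/L replicate 2 held 18 at 3 times and 17 at 10 times. The lowest estimated count of a member in any library was 2.77. The causes of these shifts were not tested.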
